A study of Mus musculus with 8 samples.

Results

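The 45 genes described here encode the machinery of mitosis: the cyclins and kinase that start it, the spindle assembly checkpoint, the kinetochore, the kinesin motors and microtubule proteins of the spindle, and proteins of chromosome structure and cytokinesis. They were taken by symbol from a list whose rule uses no measured value, although the list was drawn up with earlier results of these data known, and all 45 had a row among the 18635 genes of the deposited table. RNA was sequenced from tumor-educated macrophages (TEMs), which are bone marrow-derived macrophages (BMDMs) kept for 24 h in medium conditioned by AE17 murine mesothelioma cells (AE17-TCM). The 4 Phgdh fl/fl samples came from mice with both Phgdh alleles floxed and no Cre, and the 4 Phgdh fl/fl Cx3cr1-Cre samples came from mice with the same floxed alleles that also carried Cre at the Cx3cr1 locus on 1 allele, so that Phgdh was deleted in cells of the Cx3cr1 lineage. The mice were young adult C57BL/6 littermates, every sample received AE17-TCM, and macrophages without AE17-TCM were not analysed here. Loss of Phgdh and the presence of Cre with 1 intact copy of Cx3cr1 cannot be told apart in this design. The samples are described as biologically independent, with no statement on pooling of mice.

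As background, entry into mitosis depends on cyclin B bound to CDK1, and the genes of this phase are transcribed late in the cell cycle, in G2 and M, after the replication genes of G1 and S. In promoters of this class the MuvB complex binds a cell cycle homology region (CHR), acting as a repressor in resting cells (DREAM) and with B-MYB and FOXM1 as an activator in cycling cells. BMDMs proliferate under CSF1 and are usually a mixture of cycling and resting cells. In bulk RNA, a change in the share of cells in mitosis and a change in RNA per mitotic cell cannot be told apart.

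To show the shared promoter elements, the bases before the start of 4 members are printed 5′ to 3′ on the gene's own strand, with each CHR (TTTGAA, either strand) and each CCAAT box (CCAAT, either strand) in capitals. The windows hold at most 200 bases before the outermost start in RefSeq. The members called higher with the highest fold changes among those with a CHR inside such a window are Mki67, Ube2c and Top2a, and Cdk1, which was not called, is shown beside them. Kif14, whose CHR lies farther out, and Prc1, whose CHR adjoins a further start, rose by more than Top2a and are not shown. The same holds for Cenpf, Cenpa, Anln and Hmmr, whose CHRs lie after the start in the promoter entries used in the next paragraph. The sequences are from RefSeq on GRCm38.p6 and end at the base before the gene's outermost RefSeq start, or for Ube2c 1 base before that.
Mki67 (chr7:135716451-135716629, minus strand): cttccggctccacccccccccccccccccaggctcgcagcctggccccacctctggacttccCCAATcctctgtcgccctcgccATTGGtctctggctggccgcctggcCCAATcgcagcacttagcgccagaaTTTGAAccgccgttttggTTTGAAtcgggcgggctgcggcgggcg
Ube2c (chr2:164769728-164769927, plus strand): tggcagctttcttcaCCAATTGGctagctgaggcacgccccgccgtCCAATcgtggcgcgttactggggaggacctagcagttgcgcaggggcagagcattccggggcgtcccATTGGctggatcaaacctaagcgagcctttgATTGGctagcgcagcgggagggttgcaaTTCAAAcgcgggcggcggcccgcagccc
Top2a (chr11:99024200-99024399, minus strand): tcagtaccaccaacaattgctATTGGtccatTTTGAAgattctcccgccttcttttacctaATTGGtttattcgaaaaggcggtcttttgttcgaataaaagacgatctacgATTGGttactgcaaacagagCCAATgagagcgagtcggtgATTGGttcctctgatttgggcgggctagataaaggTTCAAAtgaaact
Cdk1 (chr10:69352913-69353112, minus strand): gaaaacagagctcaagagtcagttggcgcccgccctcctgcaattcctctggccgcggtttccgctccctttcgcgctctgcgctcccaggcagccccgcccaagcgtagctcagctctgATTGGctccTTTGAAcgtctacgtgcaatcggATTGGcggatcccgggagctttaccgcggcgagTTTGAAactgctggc
The CHR nearest this RefSeq start began 27 bases before it in Mki67, 29 in Ube2c, 13 in Top2a and 15 in Cdk1. Starts differ between annotations. By the GENCODE gene positions given below, Ube2c and Cdk1 start inside their printed windows, and this CHR lies within the gene. In the promoter entry of Mki67 used in the next paragraph, the CHRs lie 116 and 98 bases before the start. In Ube2c a CCAAT on one strand overlaps a CCAAT on the other.

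Promoter entries running from 250 bases before to 50 bases after the start were found for 37 of the 45 members (40 entries). Aurkb, Foxm1, Tpx2, Ccna2, Incenp, Spc24, Cdc25c and Kif20a had no entry. A CHR was present in 31 of the 40 entries (77.5%), against 17.9% of all 32851 mouse entries and 12.2% of the 12363 entries of tested genes. A CCAAT box was present in 75.0% of the members' entries, against 37.4% of all entries and 38.0% of those of tested genes. The related hexamer TTCGAA was in 4 of the 40 entries (10.0%), against 1.56% of all entries and 2.09% of those of tested genes. The CHR was in 12 of 16 entries of members called higher (75.0%) and in 17 of 22 entries of members not called (77.3%). Of 25 entries of replication genes, 3 held a CHR and 19 a CCAAT box. A match of 6 letters is a description of the sequence and not a bound site, and the pairs of entries of Bub3, Prc1 and Ect2 overlap each other.

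The counted reads per sample numbered 41998820 to 47027420 for Phgdh fl/fl and 38219563 to 44149669 for Phgdh fl/fl Cx3cr1-Cre. Values are normalized counts, that is, read counts divided by a size factor for each sample, and log2 fold changes are those of Phgdh fl/fl Cx3cr1-Cre over Phgdh fl/fl on the log2(normalized count + 1) scale. Phgdh (ENSMUSG00000053398, chr3:98313170-98339990, minus strand), the targeted gene, was at 119.0, 128.9, 116.8 and 104.9 normalized counts in Phgdh fl/fl samples 1 to 4 and at 32.6, 35.3, 14.2 and 26.3 in Phgdh fl/fl Cx3cr1-Cre samples 1 to 4. Its log2 fold change was −2.15 ± 0.21 (SE; limma adjusted p = 5.09e-08), and every sample stood on the side its label gives. All 8 macrophage markers were present, with sums of 1030000 to 1121000 normalized counts in Phgdh fl/fl and 1009000 to 1085000 in Phgdh fl/fl Cx3cr1-Cre, and 4 of them were called lower. Among markers of other cells, 2 of 10 neutrophil and granulocyte precursor genes were analysed (sums of 473 to 588 against 587 to 641, with S100a8 called higher), 4 of 5 progenitor genes (31.6 to 43.9 against 30.1 to 55.4), 2 of 5 erythroid genes (1.03 to 14.3 against 2.08 to 7.12), 1 of 5 T cell genes (17.2 to 31.0 against 26.0 to 37.9), 2 of 5 B cell genes (197 to 253 against 131 to 167, with Cd79b called lower), 1 of 6 mesothelial and epithelial genes (1.03 to 3.72 against 1.04 to 5.08) and 4 of 5 fibroblast genes (22.1 to 36.2 against 19.8 to 49.6). The other marker genes were not analysed here, and the part of S100a8- and Cd79b-expressing cells in the results below was not tested.

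Between the genotypes, 19 of the 45 mitotic genes were higher in the Phgdh fl/fl Cx3cr1-Cre samples, 1 was lower and 25 were not called, at a limma adjusted p under 0.05. The members called higher made up 42.2% of the list, against 20.8% of all 13629 tested genes called higher, and the 1 called lower made up 2.22%, against 20.3% called lower. The higher members included Mki67, Cenpf, Ube2c, Cenpa, Kif14 and Ccnb1, at 26.0% to 46.4% above the Phgdh fl/fl mean, and the lower member was Bub3, at 11.9% below it. The log2 fold change was positive for 34 members, with a median of 0.14 (range −0.21 to 0.55), beside a median of −0.0018 over all tested genes. In 16 members every Phgdh fl/fl Cx3cr1-Cre sample lay above every Phgdh fl/fl sample (18.4% of all tested genes did so), and in 1 every sample lay below (18.2% of all tested genes). Of the 25 members not called, 4 had an unadjusted limma p under 0.05.

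**Figure D1:**
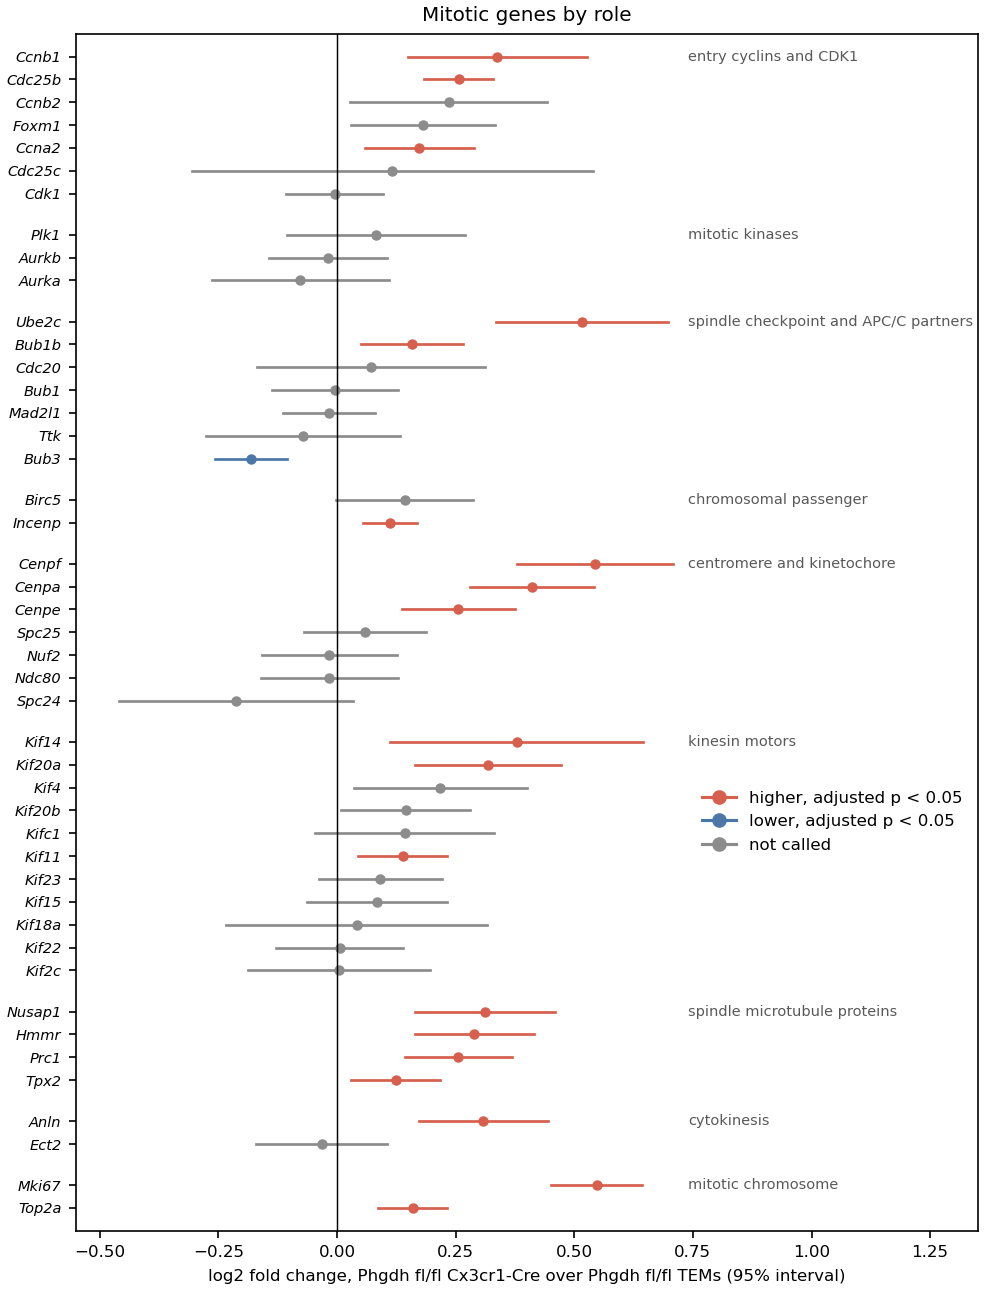
Log2 fold change of each of the 45 mitotic genes (x axis; points) with its 95% confidence interval from limma (lines), n = 4 per genotype, grouped by role. All 4 spindle microtubule proteins and both mitotic chromosome genes lie to the right of 0 and were called higher. Plk1, Aurka and Aurkb, grouped as mitotic kinases, were not called, and Bub3 is the 1 member called lower.

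The fold change rose with exon length over all tested genes, and the members are longer than the typical tested gene. Their median exon length was 4919 bases, against 4077 over all tested genes, and the median log2 fold change of all genes ran from −0.07 in the shortest of 5 equal groups by length to 0.08 in the longest. Over the same 5 groups, the share of all genes called higher ran from 8.33% through 12.2%, 17.0% and 24.4% to 41.8%. Among the members, 0 of 2 in the shortest group, 1 of 6, 8 of 12 and 2 of 13 in the next groups, and 8 of 12 in the longest were called higher. With a trend on exon length and GC content over all genes taken off, the median of the members was 0.13, and the log2 fold change was 0.48 for Mki67, 0.40 for Cenpf, 0.56 for Ube2c, 0.09 for Top2a, 0.09 for Kif11 and −0.22 for Bub3. The sign turned for 3 members, none of them called: Kif15 (−0.0080), Kif18a (−0.03) and Aurkb (0.03). The part of length in the calls of single members was not tested.

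**Figure D2:**
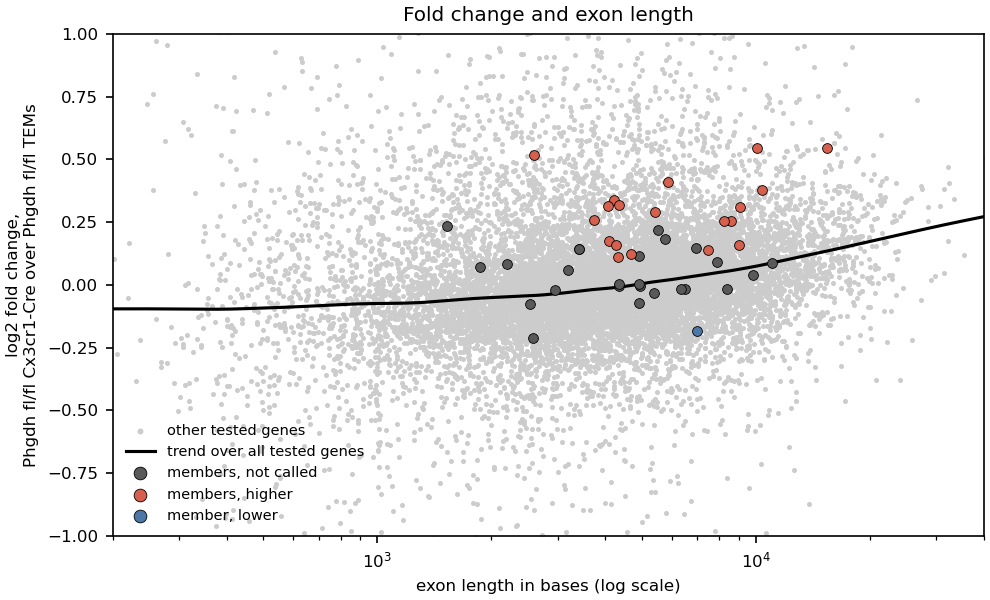
Log2 fold change (y axis, genes beyond ±1 are off the axis) against exon length in bases (x axis, log scale) for all tested genes (grey) and the 45 members (coloured by call), with the lowess trend over all tested genes (line). The trend rises with length, and Ube2c, Mki67 and Cenpf lie far above it.

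Of the 7 genes that start mitosis, Ccnb1, Cdc25b and Ccna2 were called higher (42.9%, against 20.8% of all tested genes). Ccnb1 (ENSMUSG00000041431, chr13:100778650-100786570, minus strand), which encodes cyclin B1, the activating partner of CDK1, was at 181, 248, 217 and 204 normalized counts in the Phgdh fl/fl samples and at 294, 245, 257 and 275 in the Phgdh fl/fl Cx3cr1-Cre samples (means 212.5 ± 27.7 and 267.8 ± 21.2, SD, n = 4). Its groups overlapped by 1 sample, Phgdh fl/fl sample 2, and its log2 fold change was 0.34 ± 0.09 (SE; limma adjusted p = 0.00494). Near-identical copies of part of its transcript exist (Ccnb1-ps, Gm12856, Gm4870 and Gm8416, at 94.4% to 99.2% identity over 51.1% to 52.0% of it), so its count is uncertain to the extent that reads were shared among them.

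Cdk1 (ENSMUSG00000019942, chr10:69335146-69352938, minus strand), the kinase that cyclin B1 activates, was at 1238, 1141, 1342 and 1356 normalized counts in Phgdh fl/fl and at 1196, 1286, 1232 and 1337 in Phgdh fl/fl Cx3cr1-Cre samples. The samples of the genotypes were interleaved, and the log2 fold change was −0.0053 (95% interval −0.11 to 0.10; limma adjusted p = 0.946), a sign that turned under other scalings. Cdc25b, a phosphatase that activates CDK1, rose by 0.26 on the log2 scale (limma adjusted p = 4.36e-06) with 1405 to 1515 normalized counts in Phgdh fl/fl against 1696 to 1788. Ccna2, cyclin A2, rose by 0.17 (limma adjusted p = 0.0155), a call lost without Phgdh fl/fl sample 3 or Phgdh fl/fl Cx3cr1-Cre sample 1 (adjusted p up to 0.0664); 12.5% of its exon bases are shared with Exosc9 on the opposite strand.

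Foxm1 (ENSMUSG00000001517, chr6:128362967-128376146, plus strand), a transcription factor of G2 and M genes, was at 273, 242, 269 and 280 normalized counts in Phgdh fl/fl samples and at 279, 305, 299 and 324 in Phgdh fl/fl Cx3cr1-Cre samples. The lowest Phgdh fl/fl Cx3cr1-Cre sample lay just below the highest Phgdh fl/fl sample. The log2 fold change of 0.18 ± 0.07 (SE) did not pass (limma adjusted p = 0.0516). Foxm1 stayed uncalled in 12 of 17 other settings, with a limma adjusted p of up to 0.163 (without Phgdh fl/fl Cx3cr1-Cre sample 4). Among the settings in which it passed, the adjusted p was 0.0461 with edgeR on the recovered reads. With limma it was 0.0476 without Phgdh fl/fl sample 4 and 0.0325 without Phgdh fl/fl Cx3cr1-Cre sample 1. Ccnb2, cyclin B2, had a log2 fold change of 0.24 (limma adjusted p = 0.0644). It passed without Phgdh fl/fl sample 3 or Phgdh fl/fl Cx3cr1-Cre sample 3 and with scaling to total reads. In 14 of 17 settings it stayed uncalled. Cdc25c, a further CDK1-activating phosphatase at 33.6 to 62.2 normalized counts over the 8 samples, had a log2 fold change of 0.12 with a 95% interval of −0.31 to 0.54.

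Plk1, Aurka and Aurkb, grouped here as mitotic kinases, were not called. The kinases Bub1 and Ttk are described with the spindle checkpoint. Plk1 (ENSMUSG00000030867, chr7:122159439-122169873, plus strand), which acts at centrosomes, kinetochores and the midzone, was at 180, 157, 158 and 171 normalized counts in Phgdh fl/fl and at 182, 179, 158 and 187 in Phgdh fl/fl Cx3cr1-Cre samples. The groups overlapped, with a log2 fold change of 0.08 ± 0.09 (SE; limma adjusted p = 0.496) and a 95% interval of −0.11 to 0.27; Plk-ps1 matches 82.5% of its transcript at 93.5% identity. Aurka, the centrosomal Aurora kinase, had a log2 fold change of −0.08 (95% interval −0.26 to 0.11), and Aurkb, the kinase of the chromosomal passenger complex, −0.02 (−0.14 to 0.10).

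Of the 7 genes of the spindle assembly checkpoint and its target, 2 were called higher (28.6%, against 20.8% of all tested genes). The 1 called lower made up 14.3%, against 20.3% of all tested genes, and the median log2 fold change was −0.0045. Ube2c (ENSMUSG00000001403, chr2:164769898-164778822, plus strand) encodes the E2 enzyme that works with the anaphase-promoting complex (APC/C) to mark cyclin B for degradation. It was at 142, 147, 130 and 139 normalized counts in Phgdh fl/fl samples and at 197, 216, 192 and 197 in Phgdh fl/fl Cx3cr1-Cre samples, without overlap. The log2 fold change was 0.52 ± 0.09 (SE; limma adjusted p = 5.82e-05). Of its exon bases, 22.8% are shared with Tnnc2 on the opposite strand, and the strand setting of the counting is not given in the sources used here.

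Bub3 (ENSMUSG00000066979, chr7:131560222-131571895, plus strand), the WD40 protein that brings BUB1 and BUBR1 to the kinetochore, was at 2669, 2869, 2855 and 3034 normalized counts in Phgdh fl/fl samples and at 2596, 2378, 2564 and 2531 in Phgdh fl/fl Cx3cr1-Cre samples. Every Phgdh fl/fl Cx3cr1-Cre sample lay below every Phgdh fl/fl sample, and the gene fell by 0.18 ± 0.04 on the log2 scale (SE; limma adjusted p = 0.000367). Bub1b (ENSMUSG00000040084, chr2:118598211-118641591, plus strand), which encodes BUBR1, moved the other way, from 698, 672, 643 and 615 to 789, 728, 692 and 726 normalized counts. Its groups overlapped by Phgdh fl/fl sample 1, and its log2 fold change of 0.16 ± 0.05 (SE; limma adjusted p = 0.0181) did not pass without Phgdh fl/fl sample 4 (0.0719) or Phgdh fl/fl Cx3cr1-Cre sample 1 (0.0810). The other 4 genes of the group were not called: Bub1, a checkpoint kinase, had a log2 fold change of −0.0045, Mad2l1, the inhibitor of CDC20, −0.02, Ttk, the kinase that starts the checkpoint, −0.07, and Cdc20, the activator of APC/C that the checkpoint restrains, 0.07. Gm7856 matches 84.3% of the Cdc20 transcript at 93.7% identity.

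**Figure D3:**
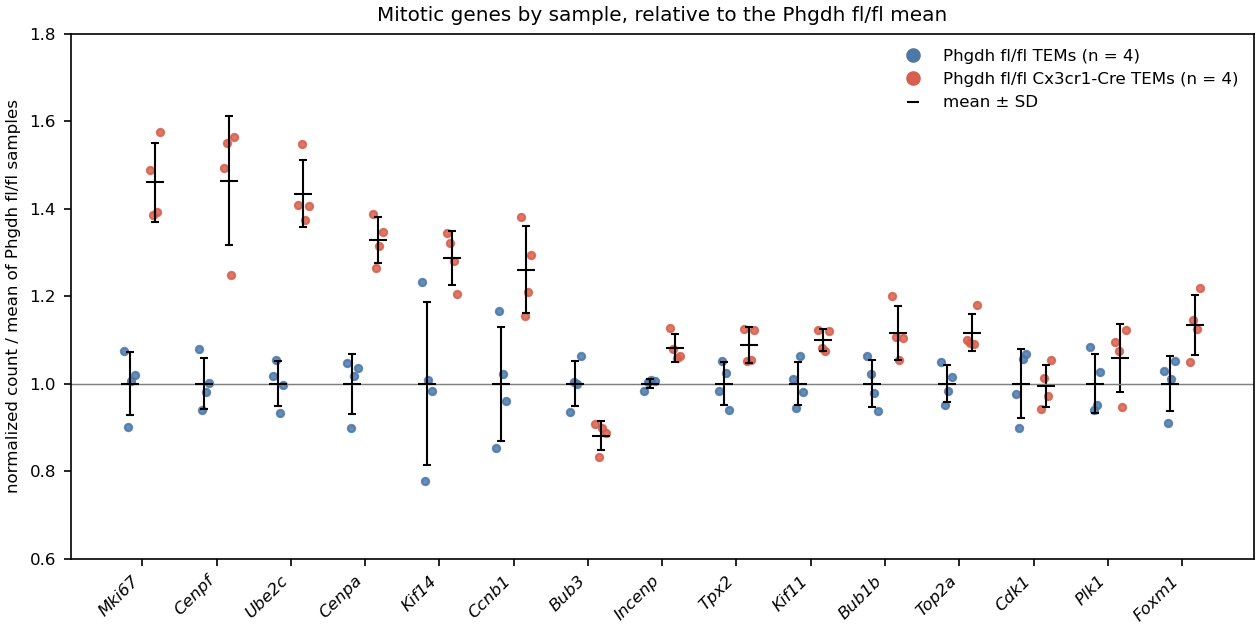
Normalized counts of 15 mitotic genes in each sample, divided by the mean of the 4 Phgdh fl/fl samples of that gene (y axis, starting at 0.6); points are samples, bars the mean ± SD, n = 4 per genotype. Mki67, Cenpf, Ube2c and Cenpa separate without overlap, Bub3 separates in the other direction, and the points of Cdk1 and Plk1 are interleaved.

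In the chromosomal passenger complex, which corrects wrong attachments of chromosomes to the spindle, Incenp rose by a small and closely replicated amount. Incenp (ENSMUSG00000024660, chr19:9872296-9899551, minus strand), its scaffold, was at 3180, 3241, 3255 and 3250 normalized counts in Phgdh fl/fl samples and at 3642, 3484, 3418 and 3434 in Phgdh fl/fl Cx3cr1-Cre samples. The groups did not overlap, with a log2 fold change of 0.11 ± 0.03 (SE; limma adjusted p = 0.00226). Birc5, survivin, which directs the complex to centromeres, ran from 233 to 253 in Phgdh fl/fl and from 262 to 280 in Phgdh fl/fl Cx3cr1-Cre. Its groups did not overlap either, yet its log2 fold change of 0.14 did not pass (limma adjusted p = 0.108). The complex's kinase Aurkb, described above, was not called. Its subunit Cdca8, counted below with the other kinetochore genes, was not called either, at −0.05 (limma adjusted p = 0.419).

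Of the 7 centromere and kinetochore members, 3 were called higher (42.9%, against 20.8% of all tested genes), and none of these belongs to the NDC80 complex. Cenpf (ENSMUSG00000026605, chr1:189640606-189688086, minus strand), a large coiled-coil protein of the outer kinetochore that accumulates in G2, was at 260, 226, 237 and 241 normalized counts in Phgdh fl/fl samples and at 360, 374, 301 and 377 in Phgdh fl/fl Cx3cr1-Cre samples. Sample 3 was the lowest of the Phgdh fl/fl Cx3cr1-Cre group and still above every Phgdh fl/fl sample, and the log2 fold change was 0.54 ± 0.08 (SE; limma adjusted p = 9.81e-06). Cenpa (ENSMUSG00000029177, chr5:30666777-30674830, plus strand), the histone H3 variant of centromeres, was at 364, 312, 354 and 360 and at 482, 439, 457 and 468 normalized counts. Its groups did not overlap, with a log2 fold change of 0.41 ± 0.06 (SE; limma adjusted p = 1.96e-05). Cenpe, the kinetochore kinesin that carries chromosomes to the equator, rose by 0.26 (limma adjusted p = 0.00113) with 576 to 723 against 751 to 815 normalized counts. The 4 subunits of the NDC80 complex, which holds the microtubule end, were not called: the log2 fold change was −0.02 for Ndc80, −0.02 for Nuf2, 0.06 for Spc25 and −0.21 for Spc24, with 95% intervals of −0.16 to 0.13, −0.16 to 0.13, −0.07 to 0.19 and −0.46 to 0.03.

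Besides Cenpe, which was called higher and is described with the kinetochore, the list holds 11 kinesin motors. Of these, 3 were called higher (27.3%, against 20.8% of all tested genes). All 11 log2 fold changes were positive, but those of Kif15 and Kif18a were negative with the trend on exon length and GC content taken off. Kif14 (ENSMUSG00000041498, chr1:136466343-136531511, plus strand), a motor of the midbody and cytokinesis, was at 113, 70.9, 92.0 and 89.7 normalized counts in Phgdh fl/fl samples and at 123, 121, 117 and 110 in Phgdh fl/fl Cx3cr1-Cre samples. The groups overlapped by Phgdh fl/fl sample 1. Its log2 fold change was 0.38 ± 0.13 (SE; limma adjusted p = 0.0218), and it was not called without Phgdh fl/fl sample 2 (0.0876) or Phgdh fl/fl Cx3cr1-Cre sample 1 (0.0555) or 2 (0.0511). Kif20a, the motor that brings the passenger complex to the midzone, rose by 0.32 (limma adjusted p = 0.00158) with 251 to 309 against 321 to 355 normalized counts; 29.3% of its exon bases are shared with Cdc23 on the opposite strand. Kif11 (ENSMUSG00000012443, chr19:37376403-37421859, plus strand), the plus-end motor that pushes spindle poles apart, was at 761, 712, 800 and 738 and at 845, 815, 808 and 844 normalized counts. Its groups did not overlap, and the log2 fold change of 0.14 ± 0.05 (SE; limma adjusted p = 0.0186) was not called without Phgdh fl/fl sample 2 (0.0679) or Phgdh fl/fl Cx3cr1-Cre sample 1 (0.0515) or 4 (0.0549).

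The other 8 of these 11 motors were not called. The chromokinesin Kif4, at 15.1% overlap of exon bases with Pdzd11 on the opposite strand, had a log2 fold change of 0.22 (limma adjusted p = 0.0515). It stayed uncalled in 11 of 17 settings and passed, among others, without Phgdh fl/fl sample 2 or Phgdh fl/fl Cx3cr1-Cre sample 1. Kif20b, a motor of cytokinesis, stood at 0.15 and passed without Phgdh fl/fl sample 1 (limma adjusted p = 0.00333). Kifc1, a minus-end motor, stood at 0.14 and passed without Phgdh fl/fl Cx3cr1-Cre sample 2 (limma adjusted p = 0.0414); Kifc5b matches 98.1% of its transcript at 96.8% identity, so these 2 genes are uncertain. Kif23, the motor of centralspindlin, had a log2 fold change of 0.09, Kif15, a spindle motor that can stand in for KIF11, 0.09, Kif18a, which limits microtubule length at kinetochores, 0.04, Kif22, a chromokinesin, 0.0052, and Kif2c, a microtubule depolymerase of the centromere, 0.0041, the last with a copy (Gm4961) at 91.7% identity over 50.8% of its transcript.

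The 4 spindle microtubule proteins were all called higher, against 20.8% of all tested genes. Tpx2 (ENSMUSG00000027469, chr2:152847964-152895321, plus strand), which activates Aurora A and nucleates microtubules, was at 843, 902, 878 and 805 normalized counts in Phgdh fl/fl samples and at 964, 902, 904 and 963 in Phgdh fl/fl Cx3cr1-Cre samples. The lowest Phgdh fl/fl Cx3cr1-Cre sample (902.1) was nearly level with the highest Phgdh fl/fl sample (902.0), and the log2 fold change was 0.12 ± 0.05 (SE; limma adjusted p = 0.0330). This call was lost without Phgdh fl/fl sample 1 or 4 and without Phgdh fl/fl Cx3cr1-Cre sample 1 or 4 (adjusted p of 0.0522 to 0.124), and with DESeq2 on the recovered reads (0.0582). Nusap1, which bundles microtubules near chromosomes, rose by 0.31, Hmmr, a spindle pole protein and hyaluronan receptor, by 0.29, and Prc1, which crosslinks the antiparallel microtubules of the midzone, by 0.26 (limma adjusted p = 0.00125, 0.000570 and 0.000611), each without overlap of the groups. Of the exon bases of Prc1, 11.1% are shared with Rccd1 on the opposite strand.

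Of the cytokinesis genes, Anln, the anillin of the contractile ring, rose by 0.31 on the log2 scale (limma adjusted p = 0.000617) with 479 to 598 against 590 to 707 normalized counts and an overlap of 1 sample pair. Ect2, which activates RhoA at the equator, had a log2 fold change of −0.03 (95% interval −0.17 to 0.11). The genes of mitotic chromosomes were both higher. Mki67 (ENSMUSG00000031004, chr7:135689784-135716361, minus strand), Ki-67, the coat of mitotic chromosomes and the usual marker of cycling cells, was at 2200, 1845, 2057 and 2086 normalized counts in Phgdh fl/fl samples and at 3046, 2835, 2850 and 3226 in Phgdh fl/fl Cx3cr1-Cre samples. The gap between the groups was wider than the range within either, and the log2 fold change of 0.55 ± 0.05 (SE; limma adjusted p = 5.26e-09) was close to that of Cenpf and Ube2c. The order of these 3 genes depended on the method: Cenpf stood above Mki67 with edgeR and DESeq2 on the recovered reads (0.55 for both genes after rounding), and Ube2c stood above both with the trend on exon length and GC content taken off. Top2a (ENSMUSG00000020914, chr11:98992943-99024189, minus strand), the topoisomerase that untangles sister chromatids, was at 2510, 2272, 2349 and 2428 and at 2629, 2614, 2608 and 2821 normalized counts, without overlap, with a log2 fold change of 0.16 ± 0.03 (SE; limma adjusted p = 0.000816).

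Per exon length the level differed widely between the members, and their place among all tested genes is not given here. In Phgdh fl/fl TEMs the FPKM computed from the recovered reads ran from 0.203 (Kif14) to 17.2 (Incenp), and after Incenp came Bub3 (9.41), Cdc25b (8.93), Top2a (6.12), Cdk1 (5.94) and Mki67 (4.70). With Cx3cr1-Cre the FPKM of Mki67 was 6.93, beside 6.90 for Top2a and 5.97 for Cdk1. The macrophage marker Adgre1 (F4/80), for scale, was at 970 FPKM in Phgdh fl/fl TEMs.

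Across samples the members moved partly together within a genotype. The mean log2 deviation of the 45 genes from each gene's mean over the 8 samples was −0.03, −0.12, −0.11 and −0.04 in Phgdh fl/fl samples 1 to 4 and 0.10, 0.06, 0.01 and 0.13 in Phgdh fl/fl Cx3cr1-Cre samples 1 to 4. Samples 1 and 4 were the higher ones in both genotypes: they held the highest value of the group for 21 and 13 of the 45 genes in Phgdh fl/fl and for 18 and 19 in Phgdh fl/fl Cx3cr1-Cre. With no overlap between the genotypes, Phgdh fl/fl sample 1 and Phgdh fl/fl Cx3cr1-Cre sample 3 came closest to each other. Summed over the 45 genes, the normalized counts were 26490 to 27870 in Phgdh fl/fl and 29340 to 31190 in Phgdh fl/fl Cx3cr1-Cre. For the 25 members not called, the sums were 8444 to 9121 and 8775 to 9537 and overlapped. This set was picked by the same comparison, so the overlap is not a separate result.

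**Figure D4:**
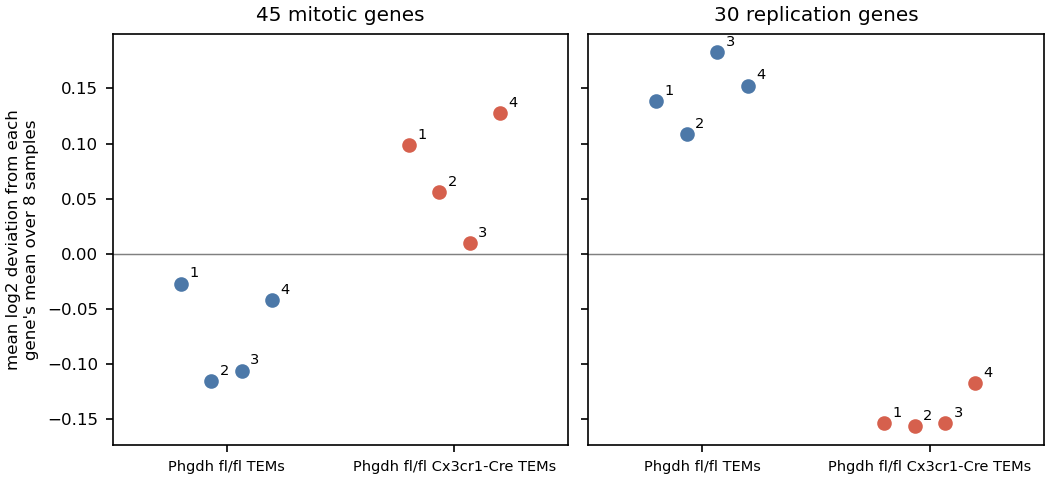
Mean log2 deviation of a gene set from each gene's mean over the 8 samples (y axis), by genotype, for the 45 mitotic genes (left) and 30 replication genes (right); each point is 1 sample, labelled with its number. The mitotic genes run from −0.12 to −0.03 in Phgdh fl/fl and from 0.01 to 0.13 in Phgdh fl/fl Cx3cr1-Cre TEMs, and the replication genes stand in the opposite order.

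The replication genes went the other way. Of 30 genes of replication origin licensing, the fork and nucleotide supply, none was called higher and 28 were called lower (93.3%). Over all tested genes, 20.8% were called higher and 20.3% lower. The median log2 fold change of the replication genes was −0.29. Mcm5, a subunit of the replicative helicase, fell by 0.49, with 1880 to 1995 against 1305 to 1442 normalized counts (limma adjusted p = 1.63e-09), and Cdc6, the licensing factor, fell by 0.48 (limma adjusted p = 1.51e-05). The called replication genes closest to 0 were Rfc3, a subunit of the clamp loader, at −0.15, and Rrm1, a subunit of ribonucleotide reductase, at −0.13. Their summed normalized counts were 50300 to 52430 in Phgdh fl/fl and 40210 to 40840 in Phgdh fl/fl Cx3cr1-Cre samples.

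**Figure D5:**
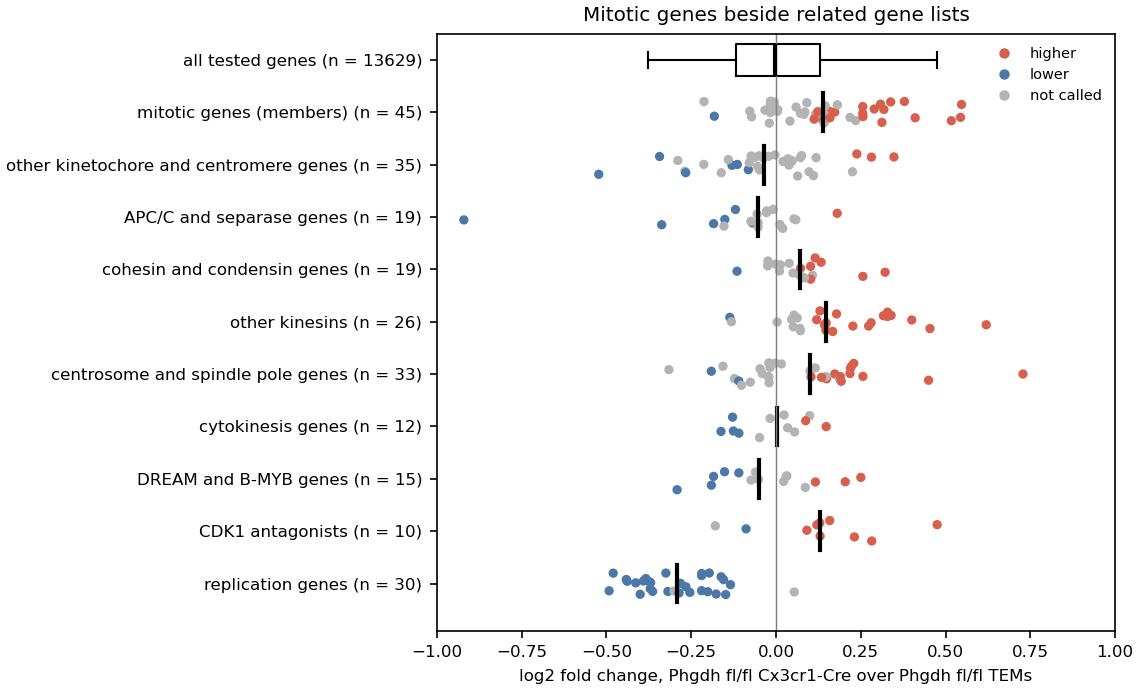
Log2 fold change (x axis) of each tested gene in the mitotic list and in 9 related lists (points, coloured by call; black bars are medians) beside all 13629 tested genes (box: quartiles; whiskers: 5th and 95th percentiles). The median is 0.14 for the mitotic genes, 0.15 for the other kinesins, −0.04 for the other kinetochore genes and −0.29 for the replication genes.

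The lists of genes that work beside the members are read against the 20.8% of all tested genes called higher and the 20.3% called lower. Of 35 other kinetochore and centromere genes, 3 were called higher (8.57%) and 6 lower (17.1%, near the share of all genes), with a median of −0.04: Knl1, the scaffold to which BUB1 and BUB3 bind, rose by 0.35 and Sgo2a, a shugoshin that protects centromeric cohesin, by 0.28, whereas Cenps fell by 0.52 and Cenpt by 0.34, both of the constitutive centromere network. Of 19 APC/C and separase genes, 1 was higher (5.26%) and 6 were lower (31.6%), with a median of −0.05. Anapc15, an APC/C subunit, fell by 0.92, with 2434 to 2754 against 1306 to 1396 normalized counts (limma adjusted p = 1.18e-13). Anapc13 fell by 0.34, while the scaffold subunit Anapc1 rose by 0.18 and Anapc2, the cullin subunit, fell by 0.07. With the trend on exon length and GC content taken off, Anapc15 stood at −0.93, Anapc13 at −0.29, Anapc1 at 0.04 and Anapc2 at −0.04. Of 19 cohesin and condensin genes, 7 were higher (36.8%) and 1 was lower (5.26%), with a median of 0.07: Ncapg2 of condensin II rose by 0.32, the cohesin loader Nipbl by 0.26 and the cohesin releaser Wapl by 0.07, and Ncaph2 of condensin II fell by 0.11.

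Kinesins outside the mitotic list were also mostly higher. Of 26 tested genes of kinesins and their light chains, most of them motors of vesicle and organelle transport, 17 were higher (65.4%) and 1 was lower (3.85%), with a median log2 fold change of 0.15. Kif5a rose by 0.62 and Kif5c by 0.45, both heavy chains of conventional kinesin, Kif1c, a transport motor, rose by 0.12 and Kifc3, a minus-end motor, fell by 0.14. Of 33 centrosome and spindle pole genes, 13 were higher (39.4%) and 2 were lower (6.06%), with a median of 0.10. Aspm, a spindle pole protein, rose by 0.73, with 133 to 183 against 235 to 289 normalized counts (limma adjusted p = 3.54e-06), and Ckap2l, a spindle protein, by 0.45, whereas Haus4 of the augmin complex fell by 0.19 and Tubgcp2 of the gamma-tubulin complex by 0.11. Of 12 further cytokinesis genes, 2 were higher (16.7%) and 4 lower (33.3%), with a median of 0.0032. Racgap1, the partner of KIF23, rose by 0.15, Sept9, a septin, fell by 0.13 and Rhoa, the GTPase of the contractile ring, fell by 0.16. Rock1, an effector kinase of RhoA, was called higher at 0.09, but stood at −0.08 with the trend on exon length and GC content taken off.

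Among the regulators, 15 genes of the DREAM and B-MYB complexes had 3 higher (near the share of all genes) and 5 lower (33.3%), with a median of −0.05. Mybl2, which encodes B-MYB, fell by 0.29 (limma adjusted p = 0.0339) and Tfdp1, a partner of E2F factors, by 0.19, whereas Tfdp2, a further such partner, rose by 0.25 and Rbl2, the p130 pocket protein of the repressor form, by 0.20. Of 10 genes that act against CDK1 or the cell cycle, 8 were higher (80.0%) and 1 lower (10.0%), with a median of 0.13. Gadd45a rose by 0.48 (limma adjusted p = 2.75e-09) and Gadd45g by 0.28, both of a stress-induced family, Ccng1, a p53 target, rose by 0.09, and Cdkn1a, the p21 inhibitor, fell by 0.09 (limma adjusted p = 0.00262). With the trend on exon length and GC content taken off, the median was 0.13 for the other kinesins, 0.14 for the genes against CDK1, 0.05 for the centrosome genes, 0.04 for cohesin and condensin, −0.01 for the other kinetochore genes, −0.02 for DREAM and B-MYB, −0.05 for APC/C, −0.08 for the further cytokinesis genes, whose sign turned, and −0.29 for the replication genes. All lists are described by their counts and medians, without a test of one list against another.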

How the data were processed

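The series holds 8 RNA-seq samples, 4 of each genotype, grouped by their labels. Per the submitters' processing notes, reads were aligned with TopHat2 to mm10, counted with HTSeq 0.6 and normalized with DESeq2; the annotation and the strand setting of the counting are not given in the sources used here. Libraries were made with a directional kit and read from a single end. The deposited signal values, although named FPKM, are read counts over a sample-wise size factor, since multiplying by 1 factor for each sample gave whole reads for 100% of 144353 values above 0 (within 0.01 reads). The authors' own fold changes, test statistics and p-values in the same table were not used.

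The 45 members and the gene lists were chosen with earlier results of these data known. The filter kept the 13629 genes, all 45 members among them, whose normalized counts averaged 10 or more, and log2(normalized count + 1) was fitted with limma 3.58.1 (R 4.3.3; moderated test with a mean-variance trend, two-sided, Benjamini-Hochberg adjustment over all tested genes, threshold 0.05). Described in full were the members with the 6 highest and 6 lowest called fold changes plus Ccnb1, Cdk1, Plk1, Top2a, Mki67 and Foxm1, and in each other list the 2 highest and 2 lowest called genes. Alternatives were a pseudocount of 0.1, no filter, a minimum of 50, quantile normalization, scaling to total reads, edgeR 4.0.16 and DESeq2 1.42.0 on the recovered reads, no trend, a replicate block and leaving out each sample; the trend on exon length and GC content was chosen after seeing the data. The tests were checked on simulated data. Gene positions and exon lengths are from GENCODE on GRCm38 (mm10), and promoter sequences from RefSeq on GRCm38.p6. With 38219563 to 47027420 counted reads per sample, counting error weighs most on the members with the lowest counts, Cdc25c and Kif14 among them.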

Additional observations from a re-analysis of the deposited data

Results flagged for a closer look

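In 8 of the 90 groups of 4 samples (45 genes in 2 genotypes), 1 sample stood apart from the other 3 by Dixon's criterion, where chance gives about 1 in 20 groups, or 4.5. In the Phgdh fl/fl Cx3cr1-Cre group, Cdc25b was at 1788 normalized counts in sample 1 (others 1696 to 1707), Kifc1 at 215.1 in sample 2 (269.4 to 276.8), Cdc20 at 120.0 in sample 3 (155.9 to 163.1) and Ndc80 at 298.9 in sample 3 (319.5 to 323.2). Sample 4 of that group was the high one for Mad2l1 at 1057 (958.6 to 969.6), Ect2 at 500.9 (430.0 to 438.6) and Top2a at 2821 (2608 to 2629). In the Phgdh fl/fl group, Kif20b was at 627.5 in sample 1 (502.4 to 522.8). Cdc25b and Top2a kept their calls when each sample was left out in turn.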

How the results depend on the processing

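The count of members called higher was 19, ran from 16 to 20 when each sample was left out in turn and from 17 (no trend) to 22 (scaling to total reads) under the 9 other settings that give calls; 1 member was called lower in each of these. The median log2 fold change of the members ran from 0.12 to 0.16 and from 0.12 to 0.15, and the number of all genes called from 4967 to 5944 and from 4930 to 5608, against 5594; on the recovered reads edgeR called 5608 genes, with 21 members higher, and DESeq2 5066, with 18. Of the 19 higher calls, 14 were kept in all 17 settings; Ccna2, Bub1b, Kif11, Kif14 and Tpx2 were lost in some, and 6 uncalled members (Ccnb2, Foxm1, Birc5, Kif4, Kif20b and Kifc1) were called in some. The log2 fold change of Cdk1 turned to 0.0042 with quantile normalization and 0.0098 with total read scaling, and ran from −0.0552 to 0.0275 when samples were left out; it was not called in any setting, and the cause was not tested. Samples with the same number correlated at 0.063, 0.098, 0.126 and 0.078 in their deviations, and Phgdh fl/fl sample 1 correlated best with Phgdh fl/fl Cx3cr1-Cre sample 4 (0.135), so the numbers were not taken to pair samples; with the replicate block 20 members were called higher and 1 lower, the median was 0.14 and 5597 genes were called. Across the genotypes, every correlation among samples 1 and 4 was positive (0.063 to 0.135), as was every one among samples 2 and 3 (0.048 to 0.126). Every correlation of sample 1 or 4 with sample 2 or 3 was negative (−0.124 to −0.036). Nothing in the labels or the study's methods gives a batch, and a factor shared by these samples was not tested. Depth limits Cdc25c, Kif18a and Kif14 most: at group means of 45.4 to 117.5 normalized counts they have the widest 95% intervals of the 45 members.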
